A study of Homo sapiens with 4 samples.

Results

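Notch receptors, ligands and targets were examined as 9 genes, chosen by name: the receptors NOTCH1, NOTCH2 and NOTCH3, the ligands JAG1, JAG2 and DLL1, the DNA-binding factor RBPJ and the target genes HES1 and HEY1. They were read by 26 probe sets annotated to exactly 1 of these genes, of 54613 probe sets in all, and the 9 genes are compared below with all 19751 genes tested. The cells were KYSE170, a human line from an oesophageal squamous cell carcinoma, grown in RPMI medium with fetal bovine serum. They received EDHB (ethyl-3,4-dihydroxybenzoate) at 50 µg/ml for 12 h (2 arrays) or were left untreated (2 arrays), and total RNA was hybridised to Affymetrix oligonucleotide arrays. EDHB inhibits prolyl hydroxylases and other oxygenases that use iron and 2-oxoglutarate. No vehicle control is named in the labels, a single line was used, and the origin of the replicates is not described, so p-values measure only the spread between these arrays, which may be technical.

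Notch signalling passes between touching cells. A Jagged or Delta ligand on one cell pulls on a Notch receptor of its neighbour, ADAM and gamma-secretase proteases then free the receptor's intracellular domain, and this domain joins RBPJ and Mastermind on DNA to switch on HES and HEY genes, which encode transcriptional repressors. In squamous epithelium Notch signalling is known to promote differentiation. The pathway also meets the enzymes that EDHB acts on, because the asparaginyl hydroxylase HIF1AN is known to hydroxylate the Notch intracellular domain and the hydroxylase ASPH modifies the EGF-like repeats of receptors and ligands.

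RefSeq promoters (GRCh38.p14) were matched for 7 of the 9 genes. The 250 bases before the start are shown for those matched genes whose EDHB and untreated arrays did not overlap on the brightest probe set, since these carry the differences described below. Capitals mark each GTGGGAA, the core letters known to be bound by RBPJ, and each ACGTG or GCGTG, the core of the hypoxia response element, on either strand, so that a match on the opposite strand appears as its reverse complement. RBPJ has 5 starts in the table, and the one with GTGGGAA is shown.
HES1 (chr3:194135898-194136147, plus strand): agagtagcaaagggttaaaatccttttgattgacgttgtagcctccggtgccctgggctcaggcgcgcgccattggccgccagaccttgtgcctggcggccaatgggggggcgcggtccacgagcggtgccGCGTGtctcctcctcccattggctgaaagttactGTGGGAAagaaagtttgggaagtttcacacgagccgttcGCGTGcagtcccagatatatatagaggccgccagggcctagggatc
RBPJ (chr4:26319496-26319745, plus strand): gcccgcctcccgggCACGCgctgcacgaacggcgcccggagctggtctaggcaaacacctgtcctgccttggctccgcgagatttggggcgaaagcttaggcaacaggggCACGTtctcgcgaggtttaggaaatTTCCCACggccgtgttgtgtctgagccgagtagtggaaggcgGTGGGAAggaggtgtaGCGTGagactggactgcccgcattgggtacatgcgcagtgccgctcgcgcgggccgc
NOTCH3 (chr19:15200996-15201245, minus strand): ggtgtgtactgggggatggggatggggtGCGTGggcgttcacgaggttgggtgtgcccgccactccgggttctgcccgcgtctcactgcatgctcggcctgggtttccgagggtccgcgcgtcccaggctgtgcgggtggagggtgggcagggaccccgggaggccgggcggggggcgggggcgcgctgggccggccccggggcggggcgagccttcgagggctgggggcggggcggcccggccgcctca
JAG2 (chr14:105168777-105169026, minus strand): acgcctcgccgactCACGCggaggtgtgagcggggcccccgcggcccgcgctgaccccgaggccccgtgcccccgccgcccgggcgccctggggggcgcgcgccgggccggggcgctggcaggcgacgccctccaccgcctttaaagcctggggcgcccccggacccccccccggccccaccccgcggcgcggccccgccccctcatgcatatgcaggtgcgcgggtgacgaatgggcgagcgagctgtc

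The HES1 promoter held GTGGGAA once, with its first base 85 bases before the start, and GCGTG at 119 and 46 bases before it. The RBPJ promoter shown held GTGGGAA in each orientation, starting 115 and 73 bases before the start, together with 1 ACGTG and 2 GCGTG. Of the other 4 starts of RBPJ, 1 held 2 GCGTG and 3 held none of the searched letters, and since the start shown was picked for its motif, it is not read against the share of all promoters. NOTCH3 and JAG2 each held 1 GCGTG and no GTGGGAA. Of all 35116 promoters of the same length, 5.43% held GTGGGAA, 18.5% held ACGTG and 32.2% held GCGTG. Of the matched genes not shown, JAG1 held 1 ACGTG and 3 GCGTG, NOTCH1 held 2 GCGTG and NOTCH2 held none of the searched letters. These matches describe the sequence only.

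Before the values, the state of the table needs saying. The replicate 2 columns did not stand in the row order of the replicate 1 columns, and with rows as deposited the EDHB replicates correlated at only 0.418 (log2, across probe sets). After the order was restored from the untreated arrays, for 54459 of 54613 rows, this value was 0.997. All 26 probe sets of the Notch genes were restored, each with a posterior of 1 after rounding, by a shift of 0 to 63 rows. The shift was 0 for the brightest probe sets of HEY1 and JAG2, whose replicate 2 values therefore stand where they were deposited. The difference within replicate 1 needs no restoring and is given for the main genes. The 4 arrays had median intensities of 23.2 to 23.4, and levels below are log2 values of this intensity. A level under 4.54, the median over all probe sets and arrays, is not shown to be above background. Of 9 squamous epithelial markers listed, KRT6A, KRT17 and TP63 were not among the genes tested. Of the 6 measured, 5 lay above this median, and KRT14 lay below it, at 3.64 in EDHB cells and 3.75 in untreated cells. All 4 leukocyte markers lay below it, and 1 of 4 columnar epithelial markers (CDX2), 2 of 4 fibroblast markers (COL1A1 and PDGFRB) and 1 of 3 endothelial markers (PECAM1) lay above it. None of the measured markers passed the threshold in limma, and their part in the results was not tested. In these bulk samples fewer cells with a transcript and less of it in each cell cannot be told apart.

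In the comparison of EDHB with untreated cells, 0 of the 9 Notch genes passed the threshold (limma, Benjamini-Hochberg adjusted p under 0.05 over all genes), against 0.0101% of all genes, that is 2 of 19751, both higher. The count of all genes called moved widely with the setting, to 40 (30 higher, 10 lower) with arrays centred on their medians and to 375, or 1.90% of all genes, when limma's prior variance followed the mean intensity (the intensity trend below). That fit also called 0 of the 9. The values below are therefore measured differences that missed the threshold, which does not show that the levels were the same. At an unadjusted p under 0.05 there were 4 of the 9 genes, with HEY1, NOTCH3 and HES1 higher and JAG2 lower in EDHB cells, where 16.8% of all genes had such a p (8.81% higher and 7.98% lower). On the brightest probe set of each gene both EDHB arrays lay above both untreated arrays in 5 of 9 genes, with a background of 23.2% of all genes, and below them in 1, with a background of 22.5%. All 9 genes lay above the median probe set. Of the 12394 genes above it, 3536 had both EDHB arrays above both untreated arrays and 3209 had them below. An unadjusted p under 0.05 in limma was found in 20.9% of these brighter genes. The 9 genes were chosen with earlier results of these data known, so setting them beside these shares is no test of the list. The median difference over the 9 genes was 0.15 log2 units, with 0.05 within replicate 1 and 0.15 within replicate 2, beside a median of -0.001 over all genes. Since the probe sets of different genes respond differently, levels are not compared between genes.

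**Figure D1:**
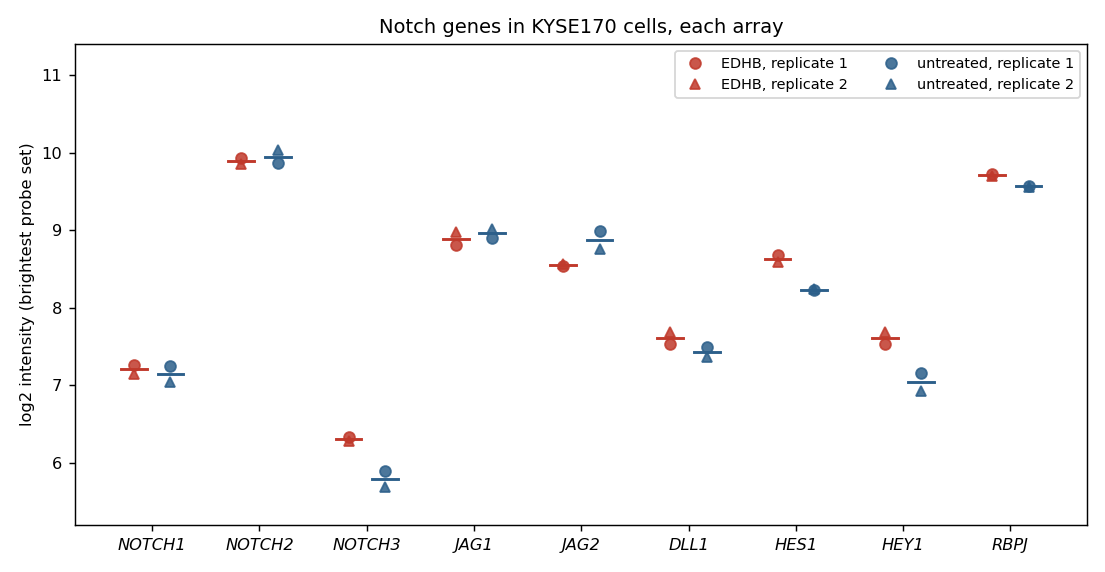
Log2 intensity of the brightest probe set of each Notch gene (y axis) on the 4 arrays, EDHB in red and untreated in blue, with circles for replicate 1, triangles for replicate 2 and bars for group means (n = 2 each). HEY1, NOTCH3, HES1, DLL1 and RBPJ have both EDHB points above both untreated points and JAG2 has them below, and the heights of different genes cannot be set against each other.

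Both target genes had higher values in EDHB cells, short of the threshold. HEY1, a repressor of the hairy and enhancer-of-split family with a known role in vessel development, had log2 levels of 7.53 and 7.69 in EDHB cells, against 7.16 and 6.93 in untreated cells. Both EDHB arrays lay above both untreated ones, and replicate 2 showed the wider gap. The means were 7.61 ± 0.12 in EDHB cells and 7.04 ± 0.16 in untreated cells (SD, n = 2 each), a 1.48-fold higher intensity. The difference of 0.57 ± 0.12 log2 units (SE) had an adjusted p of 0.146 in limma, and 0.0632 with the intensity trend. Within replicates 1 and 2 it was 0.37 and 0.76. The other probe set of HEY1, 218839_at, also had both EDHB arrays on top, with 6.15 and 6.44 in EDHB cells and 5.90 and 5.77 in untreated cells.

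HES1, the classical Notch target, encodes a repressor that holds back differentiation genes and its own transcription. Its level was 8.67 and 8.58 in EDHB cells, against 8.23 and 8.24 in untreated cells. The untreated arrays were nearly equal and both EDHB arrays lay above them. The difference was 0.39 ± 0.08 log2 units (SE, n = 2 and 2), or 1.31-fold, with 0.45 and 0.34 within replicates 1 and 2. Its adjusted p was 0.144 in limma and 0.0531 with the intensity trend. Probe set 203395_s_at showed the same order of the groups with a smaller difference, 0.27. The remaining probe set of HES1, 203393_at, lay at 2.50 and 2.40 in EDHB cells and 2.59 and 2.58 in untreated cells, under the median probe set, and is not shown to be above background. The mean over the 3 probe sets of HES1, the dim one included, differed by 0.18, with an adjusted p of 0.351 in limma.

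RBPJ, which binds DNA with corepressors when no Notch intracellular domain is present and with coactivators when it is, had 9.72 and 9.70 in EDHB cells, against 9.57 and 9.56 in untreated cells. These groups did not overlap, and the arrays within a group lay close together. The difference of 0.15 ± 0.07 log2 units (SE) had an adjusted p of 0.399 in limma. It was 0.15 within each replicate. The brightest probe set, 211974_x_at, is of a type whose probes can also match related sequences. The brightest probe sets of NOTCH2, JAG1 and DLL3, among others, are of this type too. On the other bright probe set of RBPJ, 207785_s_at, the levels were 8.26 and 8.32 in EDHB cells and 7.95 and 8.22 in untreated cells, again without overlap. The dim probe set 229540_at had 3.52 and 3.73 in EDHB cells and 3.32 and 3.10 in untreated cells, under the median probe set. The mean over the 3 probe sets of RBPJ differed by 0.26.

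Among the receptors, NOTCH3 had higher values in EDHB cells on 1 of its 2 probe sets, short of the threshold. NOTCH3 is the receptor known best from vascular smooth muscle and is also present in epithelia. On 203238_s_at its level was 6.33 and 6.28 in EDHB cells, against 5.90 and 5.68 in untreated cells, with no overlap. That is a difference of 0.51 ± 0.10 log2 units (SE, n = 2 and 2) or 1.43-fold, by 0.43 and 0.59 within replicates 1 and 2, with an adjusted p of 0.144 in limma and 0.0718 with the intensity trend. NOTCH3 was the only one of the 9 genes to differ by at least 0.4 log2 units in the same direction within both replicates, as did 1.84% of all genes upwards. The second probe set, 203237_s_at, had 5.64 and 5.56 in EDHB cells and 5.61 and 5.54 in untreated cells. There the groups overlapped and the difference was 0.02 ± 0.09 (SE). Both probe sets lay above the median probe set, which alone does not show that a probe set detects its transcript. They disagree, and which of them reads NOTCH3 better was not tested. The mean over both probe sets differed by 0.27.

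NOTCH1, the receptor with the best known tumour-suppressor role in squamous epithelium, showed 7.26 and 7.15 in EDHB cells, against 7.25 and 7.04 in untreated cells. The groups overlapped, with a difference of 0.06 ± 0.10 log2 units (SE, n = 2 and 2). Its second probe set lay under the median probe set, at 4.20 and 4.26 in EDHB cells and 4.11 and 4.18 in untreated cells. NOTCH2 had 9.92 and 9.86 in EDHB cells, against 9.87 and 10.03 in untreated cells, on its brightest probe set, and these groups overlapped too. The mean differences of its 4 probe sets ran from -0.21 to -0.06, and 2 of the 4 had both EDHB arrays below both untreated arrays. The other 2, the brightest and 212377_s_at, differed by 0.05 and 0.01 within replicate 1. Within replicate 2 they differed by -0.17 and -0.21. NOTCH2 shares near-identical sequence with the NOTCH2NL genes, and 1 further probe set annotated to both was left out, so signal of the NOTCH2 probe sets may include these copies.

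Of the ligands, JAG2 had lower values in EDHB cells, short of the threshold. It is the Jagged ligand known for roles in limb, palate and thymus development. Its level was 8.53 and 8.56 in EDHB cells, against 8.99 and 8.76 in untreated cells. Both EDHB arrays lay below both untreated arrays, and the untreated arrays were further apart than the EDHB arrays. The difference was -0.33 ± 0.10 log2 units (SE, n = 2 and 2), or 0.796-fold, with an adjusted p of 0.231 in limma and 0.124 with the intensity trend. It was -0.46 within replicate 1 and -0.20 within replicate 2, and -0.22 without untreated replicate 1. The second probe set, 209784_s_at, kept the same order of the groups, at 7.94 and 7.89 in EDHB cells and 8.32 and 8.06 in untreated cells.

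JAG1, the Jagged ligand mutated in Alagille syndrome, had 8.81 and 8.97 in EDHB cells, against 8.90 and 9.02 in untreated cells. The groups overlapped. Its 6 probe sets gave differences from -0.18 to -0.001, and in 2 of them both EDHB arrays lay below both untreated arrays. The difference on the brightest one was -0.07 ± 0.10 (SE), adjusted p of 0.796 in limma. DLL1, a Delta ligand, had 7.53 and 7.68 in EDHB cells, against 7.49 and 7.37 in untreated cells, without overlap but with a gap of only 0.04 within replicate 1 and 0.31 within replicate 2. Its dim second probe set leaned in the opposite direction, with 4.22 and 4.23 in EDHB cells and 4.47 and 4.37 in untreated cells. The mean over both probe sets of DLL1 differed by -0.0094.

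**Figure D2:**
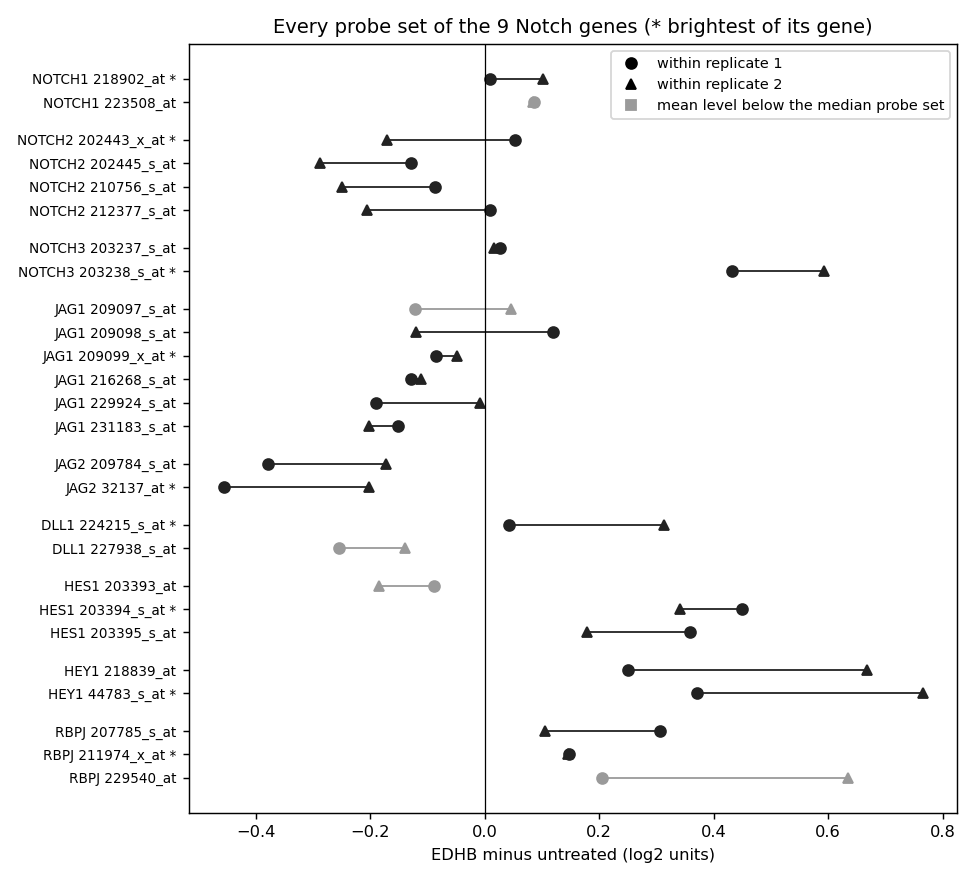
EDHB minus untreated in log2 units (x axis) for each of the 26 probe sets of the 9 Notch genes, with circles for the difference within replicate 1, triangles for that within replicate 2, and grey for probe sets whose mean level lay under the median probe set of 4.54. Both probe sets of HEY1 and all 3 of RBPJ lie right of 0 and both of JAG2 left of it, whereas the 2 probe sets of NOTCH3 differ from each other.

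Over all 26 probe sets, 10 had both EDHB arrays above both untreated arrays, 8 had them below and 8 overlapped, against a background of 20.2% of all probe sets above and 21.8% below. With every probe set fitted on its own in limma, 0 of the 26 were called, as were 0 of all 54459, and 7 of the 26 had an unadjusted p under 0.05, where 13.4% of all probe sets did. Of the 26 probe sets, 5 lay under the median probe set. Probe sets of the same gene overlap in sequence or transcript and are not independent measurements.

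**Figure D3:**
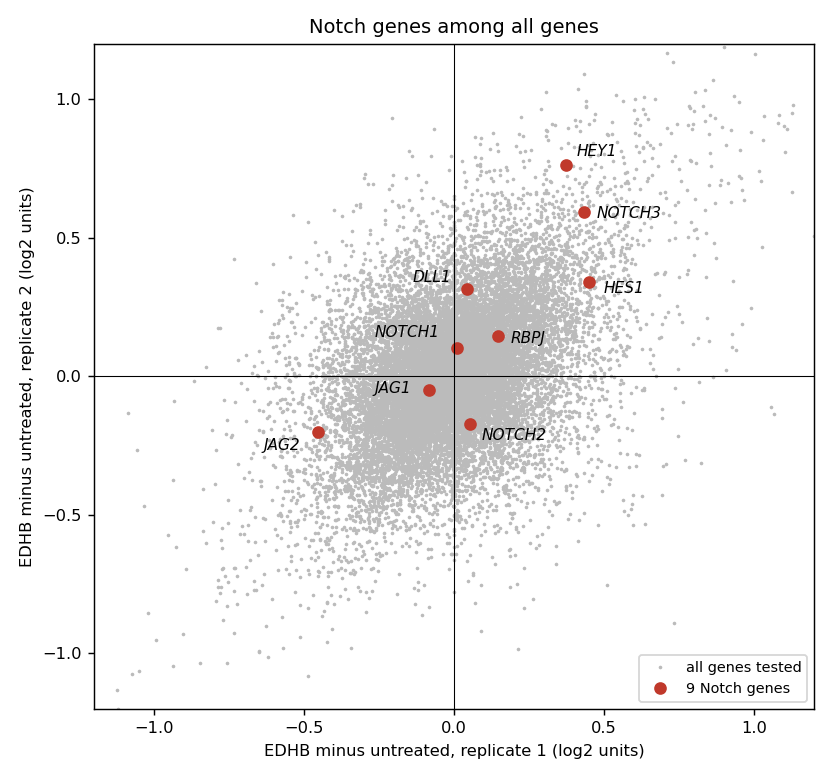
EDHB minus untreated within replicate 1 (x axis) and within replicate 2 (y axis), in log2 units, for the brightest probe set of every gene (grey) and of the 9 Notch genes (red), with 51 genes beyond the axes. HEY1, NOTCH3 and HES1 lie towards the upper right edge of the grey cloud, JAG2 to its lower left, and the others within its dense centre.

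The pattern most like that of HEY1, the gene with the largest difference of the 9, was sought among 12385 other genes above the median probe set, by the Euclidean distance between mean-centred log2 levels on the 4 arrays. The nearest was APOL6, an apolipoprotein L gene, at a distance of 0.028, followed by the presynaptic scaffold gene PCLO at 0.043 and CASP10, a caspase of death receptor signalling, at 0.050. APOL6 had log2 levels of 6.83 and 6.96 in EDHB cells and 6.44 and 6.20 in untreated cells. With 4 arrays many genes can share such a pattern.

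A list of further genes of the Notch pathway, also written with earlier results of these data known, gave 55 that were analysed here. In limma, adjusted over all genes, 0 of the 55 were called, against 0.0101% of all genes. An unadjusted p under 0.05 in limma was found for 9 of them (4 higher and 5 lower in EDHB cells), which is 16.4% beside the 16.8% of all genes. With the intensity trend 1 of the 55 was called, higher in EDHB cells, where 1.90% of all genes were called. The median difference of the 55 genes was 0.02 log2 units.

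KAT2B, the acetyltransferase PCAF that acts with Mastermind as a coactivator, showed the largest difference of the list. No further probe set of KAT2B was available here to compare, nor of KAT2A, NRARP, HES6 and DNER below. Its level was 5.55 and 5.63 in EDHB cells, against 4.76 and 4.66 in untreated cells. The gap between the groups was wide beside the spread within them, but the untreated level lay only just above the median probe set. The difference of 0.88 ± 0.08 log2 units (SE, n = 2 and 2) or 1.83-fold had an adjusted p of 0.0763 in limma and 0.0263 with the intensity trend, with a range of 0.0179 to 0.575 over the alternatives. MAML2, a Mastermind coactivator, and KAT2A, the relative of KAT2B, differed by 0.33 and -0.28. The other 5 coactivators measured, MAML1, MAML3, SNW1, EP300 and CREBBP, lay between -0.05 and 0.08.

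Among the other targets NRARP had lower values in EDHB cells, short of the threshold. NRARP is induced by Notch and limits it by binding the intracellular domain. Its level was 7.74 and 7.73 in EDHB cells, against 8.10 and 8.11 in untreated cells. The arrays of a group were almost equal and the groups lay apart. The difference was -0.37 ± 0.07 log2 units (SE, n = 2 and 2), with an adjusted p of 0.144 in limma and 0.0585 with the intensity trend. HES6, which is known to counteract HES1, differed by 0.24. The other targets HES2, HES4, HES5, HES7, HEY2 and HEYL lay between -0.09 and 0.05.

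Of the remaining ligands and their partners, DNER, a ligand-like protein of neurons, had 5.11 and 5.26 in EDHB cells, against 5.65 and 5.68 in untreated cells, with no overlap. Its difference of -0.48 ± 0.09 log2 units (SE) had an adjusted p of 0.133 in limma, and it differed by at least 0.4 downwards within both replicates, as did 1.08% of all genes. DLL3, a Delta-like protein that does not activate receptors on neighbouring cells, differed by -0.25 on its brightest probe set, while its 3 other probe sets gave -0.05 to 0.04. MIB1, the ubiquitin ligase that activates ligands, differed by 0.23, and its 4 probe sets all leaned higher, by 0.07 to 0.39. PSEN2, a catalytic subunit of gamma-secretase, differed by -0.36, and its 3 probe sets ran from -0.40 to -0.34. DLL3, MIB1, PSEN2, MAML2, KAT2A, HES6 and NRARP were named after their values were seen, as the further genes with an unadjusted p under 0.05.

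The hydroxylases that act on Notch proteins showed small differences. HIF1AN averaged 8.02 ± 0.07 in EDHB cells and 8.02 ± 0.03 in untreated cells (SD, n = 2 each), and the groups overlapped (difference 0.002 ± 0.08 log2 units, SE). ASPH had 9.57 and 9.49 in EDHB cells, against 9.32 and 9.38 in untreated cells, without overlap, a difference of 0.18 ± 0.08 (SE) with an adjusted p of 0.350 in limma. Of its 9 probe sets 4 had both EDHB arrays above both untreated arrays, 1 had them below and 4 overlapped, with differences from -0.05 to 0.22, and the mean over them differed by 0.07. The glycosyltransferases LFNG, MFNG, RFNG, POFUT1 and POGLUT1, which add or extend sugars on Notch, lay between -0.19 and 0.06. The proteases other than PSEN2 (ADAM10, ADAM17, NCSTN, APH1A, APH1B and PSENEN) lay between -0.04 and 0.11, and the 6 corepressor genes measured between -0.13 and 0.14.

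**Figure D4:**
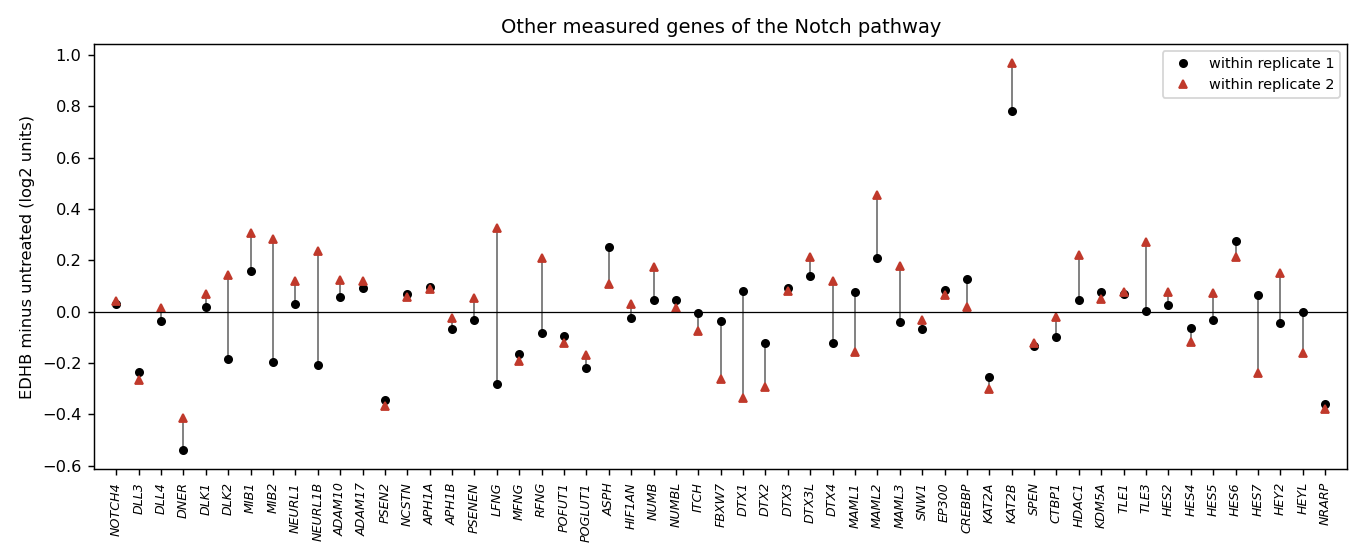
EDHB minus untreated in log2 units (y axis) within replicate 1 (black circles) and replicate 2 (red triangles) for the brightest probe set of the 55 further Notch pathway genes. KAT2B lies highest and DNER lowest in both replicates, NRARP and PSEN2 lie below 0 with close replicates, and most others straddle or lie near 0.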

How the data were processed

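KYSE170 RNA was measured on 2 EDHB and 2 untreated arrays. The authors deposited linear intensities for the probe sets of each array, normalised by RMA according to the submitters' processing notes; which program ran it, and on what genome build, is not given in the sources used here. This method corrects background, equalises the distributions of the arrays and combines each probe set's probes, so low levels are compressed and any global shift is lost. Values were turned into log2 with no pseudocount.

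The replicate 2 columns, with 1 empty cell each, matched a sheet sorted on its own (2-fold higher, 2-fold lower, rest, each in ID order). This layout is inferred. Identities were recovered by a forward-backward alignment of the untreated arrays (Student's t density, scale 0.15, 3 degrees of freedom), kept at a posterior of at least 0.95. It used EDHB arrays only through the 2-fold lists, and may narrow the spread between untreated arrays.

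Gene names came from the platform's annotation table, checked by gene identifier (41091 with 1 gene, 1801 with several, 11721 with none listed). Each gene was read by its brightest restored probe set. Groups were compared with limma 3.58.1 in R 4.3.3 (lmFit, eBayes, no block), p-values adjusted over all genes. The alignment and the fit were also run on simulated data. There the fit missed most changes of about the size seen for HEY1, NOTCH3 and HES1, and it called some unchanged genes. Few genes were changed in the simulation, and the share changed in the real data is not known. The rate of misses therefore cannot be carried over to these genes. The alignment left part of the simulated rows of the 2-fold lists unrestored. Python 3.11.15 with numpy 2.4.6 made the tables. Of the pathway genes, the naming rule took those called in either fit or differing by at least 0.4 log2 units within both replicates, and HIF1AN and ASPH; other names were added after their values were seen, as the report says. The members and lists were chosen with earlier results of these data known. The number of arrays limits the precision.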

Additional observations from a re-analysis of the deposited data

How the results depend on the processing

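Under 14 alternatives 0 of the 9 Notch genes were called, and the lowest adjusted p of any was 0.0513 in limma. The count of all genes called, 2 as reported, was 0 with every probe set fitted on its own, 38 (22 higher, 16 lower) with the mean of a gene's probe sets, 375 (211 higher, 164 lower) with the intensity trend, 40 (30 higher, 10 lower) after centring arrays on their medians, 43 (31 higher, 12 lower) after cyclic loess, 79 (51 higher, 28 lower) with a pseudocount of 16, 426 (265 higher, 161 lower) without dim genes, and 0 with a posterior minimum of 0.5. It was 0 without any 1 of the 4 arrays, when 1 group keeps a lone array assumed to vary like the others; at an unadjusted p under 0.05 the reported fit had 3317 genes. Of the 55 further pathway genes, 1 was called with the mean of probe sets, the trend, either scaling or the pseudocount (KAT2B in each), and 2 without dim genes (KAT2B and DNER). With the replicate number as a block, 0 genes were called; no label says that the numbers pair the arrays, and the replicate 2 minus replicate 1 differences of the EDHB and of the untreated arrays correlated across probe sets at 0.184. The sign was the same throughout for NOTCH3, JAG2, HES1, HEY1 and RBPJ, but sizes moved: the mean of probe sets gave 0.27 for NOTCH3, 0.18 for HES1 and 0.26 for RBPJ, and leaving out 1 array gave -0.44 to -0.22 for JAG2 and 0.10 to 0.25 for DLL1. It turned for genes near 0: leaving out 1 array gave -0.047 to 0.16 for NOTCH1, -0.14 to 0.020 for NOTCH2, -0.15 to 0.014 for JAG1 and -0.047 to 0.052 for HIF1AN, and the mean of probe sets gave -0.0094 for DLL1. The cause of these shifts was not tested.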
